A study of Fragaria x ananassa with 21 samples.

Results

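The cleavage sites described here are the positions in strawberry receptacle transcripts at which degradome reads of water-injected control fruit began. A degradome library holds the ends left behind when a transcript is cut, and a read that begins at the position predicted for a miRNA counts toward that site. All fruit were octaploid Fragaria × ananassa of the cultivar Toyonoka. The control libraries were CK0, CK5 and CK8, from fruit that received 100 μL of distilled water and were taken on day 0, 5 or 8. ABA fruit (ABA5 and ABA8, 1 μM) and NDGA fruit (NDGA5 and NDGA8, 100 μM of a blocker of ABA synthesis) served for context only. Fruit were injected 2 weeks after anthesis, with day 0 set at that time. Each group had 1 library, and for the transcriptome the labels state that RNA of 10 fruits was pooled. The paper counts 10 fruits as 1 biological replicate of the transcriptome and describes pooling 3 replicates within each sample. The spread between fruits was therefore not measured, and no p-value was computed. Each site is a transcript and position with at least 1 read in 1 or more of the 3 control libraries, and 525 sites met this out of 733 with reads in any of the 7 libraries. They lay on 486 assembled transcripts of 325 Trinity components, a component being a group of contigs that usually stands for 1 gene or several near-identical copies.

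Plant miRNAs guide an Argonaute protein to transcripts with nearly full complementarity, and the transcript is usually cut opposite base 10 of the miRNA. The conserved families are best known from Arabidopsis. There miR393 targets auxin receptors of the TIR1/AFB group, miR160 and miR167 target auxin response factors, miR164 targets NAC factors and miR319 targets TCP growth factors. The same background gives SPL factors for miR156, AP2-type factors for miR172, class III homeodomain-leucine zipper factors for miR166, growth-regulating factors for miR396, MYB factors for miR828 and, in many plants, NBS-LRR resistance genes for miR482. Of the 34 conserved families listed with a target class, 20 had at least 1 control site. The deposited table names few of these targets. Among the control sites 59 carried a transcript annotation and 216 a GO term, and a word of the expected target class stood at 1 site, a laccase assigned to miR397 with 1 read in CK0. Targets are therefore given by contig name, with GO terms where present.

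The mature small RNAs behind the most read sites and the largest differences between days are shown 5′ to 3′, as the deposited table spells them in DNA letters. Capitals mark the seed, bases 2 to 8.
vvi-miR482_2ss10CT20TC: tCTTTCCTattcctcccatccc
PC-3p-217_12084: tCTTTCCTagtcctgccattcc
mtr-miR393a_R+1_1ss21CT: tCCAAAGGgatcgcattgattt
mtr-miR160a: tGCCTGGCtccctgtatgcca
mtr-miR164a: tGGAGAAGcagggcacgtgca
mtr-miR319a-3p_1ss20CT: tTGGACTGaagggagctcct
gma-miR828a: tCTTGCTCaaatgagtattcca
mdm-miR2111a_R-1: tAATCTGCatcctgaggttt
mdm-miR166a: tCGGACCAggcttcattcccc
gma-miR156a_L+1: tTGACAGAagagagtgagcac
mtr-miR156b-5p_R+1: tGACAGAAgagagtgagcaca
mtr-miR396b-5p_R-1: tTCCACAGctttcttgaact
mtr-miR172b: aGAATCTTgatgatgctgcat
lus-miR172j_R-3_1ss12AC: gCAGCATCatccagattc
The miR482 form and the predicted small RNA PC-3p-217_12084 share a seed and differ at 3 of 22 bases, and 4 of the control sites were listed under both. The 2 miR156 forms differ by 1 base in their start, so that their seeds are shifted against each other. The last 2 sequences come from opposite arms of miR172, and the sites of the arm printed last are described apart from those of miR172b.

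The authors' table gave library totals of 40989117 tags in CK0, 18345011 in CK5 and 23198267 in CK8, recovered from its depth-scaled column. In bulk tissue fewer cells with a transcript and less RNA per cell cannot be told apart. The control sites held 32459 reads in CK0, 19376 in CK5 and 15548 in CK8. Reads were found at 367 sites in CK0, 236 in CK5 and 286 in CK8. A single read was the whole evidence at 137 of these sites in CK0, 101 in CK5 and 133 in CK8. Sites seen on every day numbered 123 and held 66069 of the control reads, whereas 152 sites were seen in CK0 only, 43 in CK5 only and 89 in CK8 only. The site detected on 1 day alone with most reads had 14. At the border of the rule, 198 sites had 1 read in all over the 3 libraries, and the 208 sites with reads in treated fruit and none in control fruit had at most 4 reads in any library. One transcript family set the totals. Component comp100446_c0 was listed as 10 isoforms with nearly the same reads at each. Divided among the places they map to, these reads gave a lower signal, so many were listed more than once. As listed, they made up 77.9% of the reads in CK0, 86.9% in CK5 and 80.7% in CK8. For this reason the counts of differing sites, and the fold changes named with them, are given as a share of the listed reads and per library total, in reads per 1000000000 library tags (RPB). A share depends on comp100446_c0, and RPB does not.

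Sites of conserved families took most of the reads. The listed families held 212 sites with 96.6% of the reads in CK0, 97.7% in CK5 and 97.0% in CK8. Predicted small RNAs alone accounted for 294 sites, with 1.82% of the reads in CK0, 1.5% in CK5 and 2.28% in CK8. Without comp100446_c0 the listed families held 84.7% of the remaining reads in CK0, 82.4% in CK5 and 84.4% in CK8, and predicted small RNAs alone 8.23%, 11.5% and 11.8% on those days. The authors' category, whose meaning the file does not state, differed between these kinds of site. Every category 4 site had 1 read, and category 0 held 95.9% of the reads in CK0, 97.4% in CK5 and 95.3% in CK8 on 59, 50 and 47 sites. Category 0 was given to 32.1% of the sites of the listed families with reads in CK0, to 36.1% in CK5 and to 31.3% in CK8. Without comp100446_c0 this was 27.7%, 30.3% and 25.6%. The same category was given to 1.60%, 4.72% and 2.07% of the sites of predicted small RNAs alone on those days. These kinds of site also differed in depth. At least 10 reads in a control library were found at 67 of the 212 sites of listed families and at 8 of the 294 predicted ones. Exactly 38 sites of 21 components were category 0 on all 3 days, and 37 of them belonged to the listed families. The other belonged to miR2111, a named family outside that list. The components behind them were 4 of miR482, 3 of miR396, 2 each of miR160, miR164, miR172 and miR319, and 1 each of miR156, miR169, miR393, miR2111, miR5213 and miR828.

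**Figure D1:**
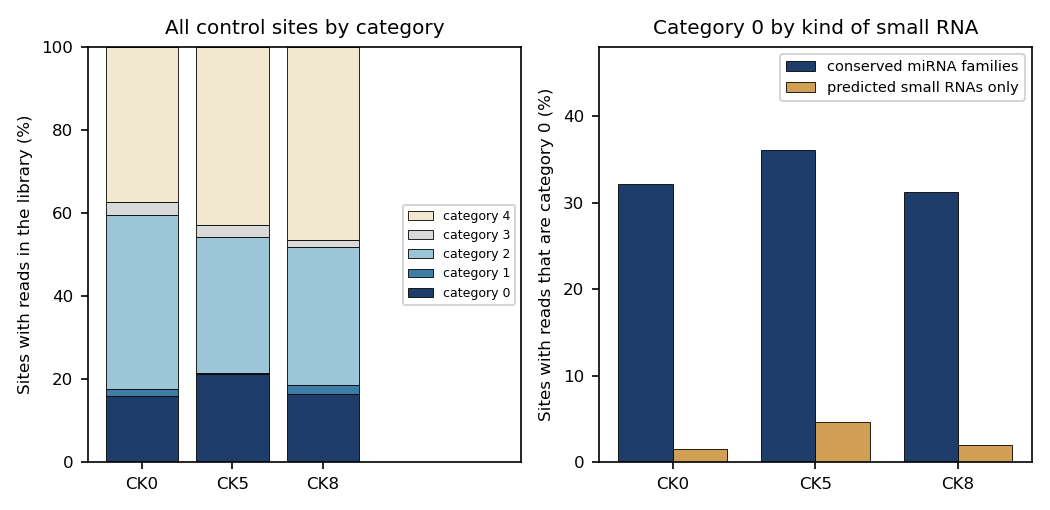
Left, percentage of the control sites with reads in each library (y axis) by category 0 to 4 in CK0, CK5 and CK8 (x axis). Right, percentage of sites that were category 0 for the listed conserved families and for predicted small RNAs alone. Category 0 stands at 31.3% to 36.1% in the first kind and at 1.60% to 4.72% in the second. Without comp100446_c0 the first kind had 25.6% to 30.3%.

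The cut lay opposite base 10 of the small RNA at 484 of the 525 sites, opposite base 9 at 30 and opposite base 11 at 11. Only reads at predicted positions were listed, so these counts cannot show that a small RNA guided the cut. Base 10 held 91.0% of the sites of the listed families and 92.5% of those of predicted small RNAs alone. The median site lay at 52.1% of the transcript length from its 5′ end, with quartiles at 30.8% and 71.8%. At the 81 sites with at least 10 reads in a control library the median was 39.0%. The 2 miR156 forms printed above were assigned to neighbouring bases. On comp119269_c0_seq4, position 2957 lay opposite base 10 of miR156a and had 48 reads in CK0, 46 in CK5 and 13 in CK8. Position 2956, of category 2, was assigned to miR156b and had 29, 14 and 11 reads on those days.

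The most read sites were those of miR482 on the 10 isoforms of comp100446_c0, which has no annotation in the table. Each isoform had 2491 to 2574 reads in CK0, 1656 to 1716 in CK5 and 1218 to 1301 in CK8. Counted for 1 isoform, comp100446_c0_seq7, this came to 62797 RPB in CK0, 92886 in CK5 and 53538 in CK8. CK5 was highest and CK8 lowest. In reads divided among the places they map to, the order was the same. Each isoform then had 8914 to 9251 RPB in CK0, 11331 to 11876 in CK5 and 8236 to 8833 in CK8. The transcript was highest in CK0, with 7.99 RPKM (the authors' transcript level, scaled to length and depth) in CK0, 2.76 in CK5 and 2.78 in CK8. A further miR482 site, position 252 of comp91920_c0_seq1, had 328 reads in CK0, 289 in CK5 and 225 in CK8. Its RPB in CK5 was 1.97-fold that in CK0 (exact 95% counting interval 1.67 to 2.31), while the transcript was at 3.23 RPKM in CK0, 1.77 in CK5 and 1.42 in CK8. Intervals cover counting error only. They also treat reads as independent molecules, which PCR reads without molecular identifiers are not. There CK0 was lowest, with 8002 RPB in CK0, 15754 in CK5 and 9699 in CK8. Position 27 of comp112346_c0_seq1 was highest in CK0, with 1317 RPB in CK0, 981 in CK5 and 259 in CK8. It had 6 reads in CK8, against 54 in CK0, and was 5.09-fold lower per library total (2.19 to 14.5) and 4.31-fold lower as a share (1.86 to 12.3).

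The single miR393 site ranked next. It lay at position 2855 of comp112242_c0_seq9, whose GO terms are auxin binding and SCF ubiquitin ligase complex. It had 2149 reads in CK0, 924 in CK5 and 1111 in CK8. Scaled to the libraries this was 52429, 50368 and 47892 RPB, so that CK8 was 1.09-fold lower than CK0 (1.02 to 1.18). As a share of the listed reads the site had 6.62% in CK0, 4.77% in CK5 and 7.15% in CK8, an order that the scaling per library total did not show. The transcript was at 36.1 RPKM in CK0, 26.1 in CK5 and 22.9 in CK8. Summed over all sequences named for miR393, the small RNA stood at 96.1 normalized reads in CK0, 117 in CK5 and 87.0 in CK8.

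**Figure D2:**
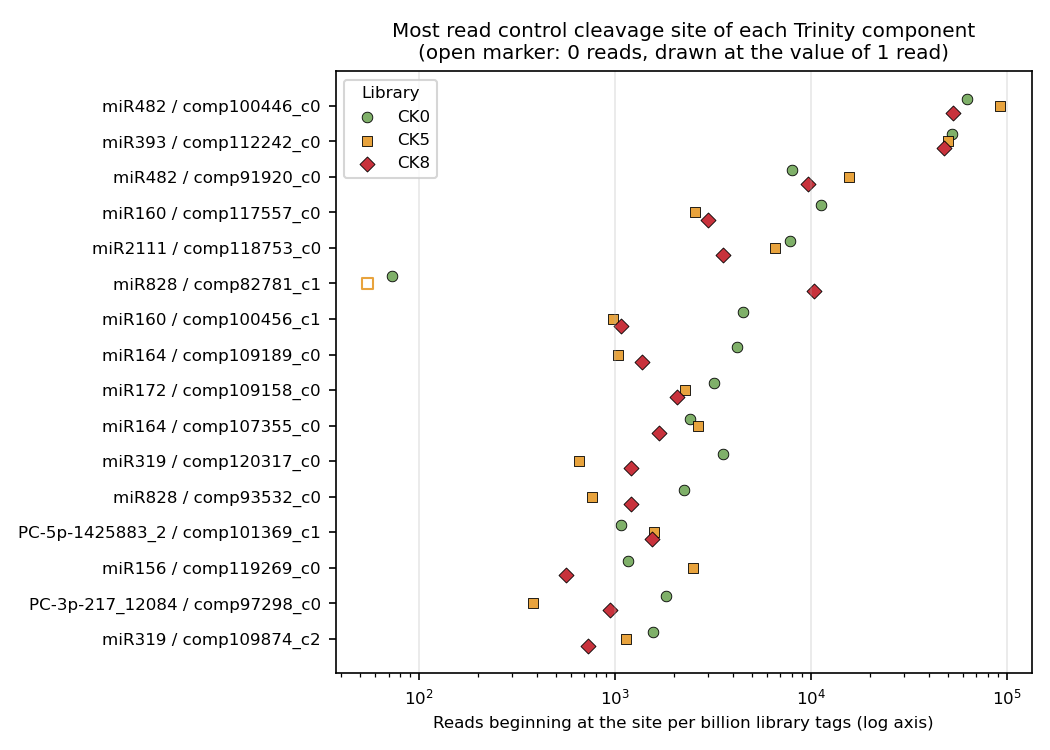
Reads beginning at the most read site of each component with at least 100 control reads, in RPB (reads per 1000000000 library tags, x axis, log scale), in CK0 (circles), CK5 (squares) and CK8 (diamonds), 1 library each. The miR393 site lies between 47892 and 52429 on all days, both miR160 sites are highest in CK0, and the miR828 site of comp82781_c1 is high in CK8 alone.

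Several sites of miR160, miR164, miR319 and miR396 had most reads in CK0. Between CK5 and CK0, 76 sites had at least 10 reads in 1 of the libraries and 37 of them (48.7%) had a share at least 2-fold lower in CK5, with a count under 3 read as 3. Another 3 (3.95%) had a share at least 2-fold higher, so that 52.6% of the tested sites were apart. Of the 37 lower sites, on 26 components, 28 were also at least 2-fold lower per library total, and 19 were also lower when shares were taken without comp100446_c0. Per library total 5 sites (6.58%) were higher and 28 (36.8%) lower. The read minimum was easier to reach in CK0, the deeper library. Of the 76 sites, 33 reached it in CK0 only, and 26 of the 37 lower sites were among these. Where both libraries reached it, 11 of 41 sites had a lower share and 1 a higher one. The 10 isoforms of comp100446_c0 were tested in each comparison of days, and none was 2-fold apart. Without them 66 sites were tested here, 70 for CK8 against CK0 and 41 for CK8 against CK5. With the same minimum per library total in both libraries (545 RPB), 57 sites were tested, of which 25 were lower and 3 higher by share, and 18 lower and 5 higher per library total. Isoforms of 1 component count as separate sites here. Lower sites were found for miR396 (8 of 10 tested, on 4 components), miR156 (3 of 7, on 2), miR160 (3 of 4, on 2) and miR166 (3 of 3, on 1). They were also found for miR172 (3 of 6, on 3 components), miR164 (2 of 4, on 1), miR169 (2 of 3, on 2) and miR319 (1 of 2). The only tested site each of miR399, miR828, miR845 and miR7125 was lower, as were 1 of miR482 and 7 of predicted small RNAs. With sites listed under several names counted for each, these were 3 of 16 for miR482 and 7 of 14 for predicted small RNAs. No family was tested against the 48.7% of all 76 sites. Per library total none of the lower sites of miR166, miR399 and miR7125 was at least 2-fold lower. Nor were 2 of the 3 lower sites of miR172, 1 of the 2 of miR169 and 1 of the 7 of predicted small RNAs. The 3 lower miR156 sites were assigned to a sequence of the opposite arm and not to the mature forms printed above. The median of the 76 sites, including those that passed in CK0 only, was -0.94 on the log2 scale of shares and -0.53 per library total. With 1 site per component and family the median per library total was -0.84 (50 pairs). With reads scaled to the median of the shares of the 76 sites, 21 sites were higher and 16 lower.

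The miR160 sites were among the most different between days. Position 1443 of comp117557_c0_seq21, annotated with DNA binding and auxin mediated signaling, had 47 reads in CK5, against 461 in CK0. Its share was 5.86-fold lower in CK5 (4.33 to 8.08), and per library total it was 4.39-fold lower (3.25 to 6.06). On day 8 it had 69 reads, with a share 3.20-fold lower than in CK0 (2.48 to 4.18) and 3.78-fold lower per library total. The transcript itself was at 15.6 RPKM in CK0, 7.08 in CK5 and 8.39 in CK8. A second component with the same GO terms, comp100456_c1_seq1 at position 2126, had 186 reads in CK0, 18 in CK5 and 25 in CK8. Its share was 6.17-fold lower in CK5 than in CK0 (3.80 to 10.6) and 3.56-fold lower in CK8 than in CK0 (2.34 to 5.65). Per library total it was 4.62-fold lower in CK5 and 4.21-fold lower in CK8. Its transcript differed less, with 2.41 RPKM in CK0, 1.85 in CK5 and 1.43 in CK8. The miR160 sequence printed above stood at 350 normalized small RNA reads in CK0, 220 in CK5 and 179 in CK8. The level of the miR160 form that is 1 base longer was not analysed here.

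The 2 most read targets of miR164 differed from each other. Position 1164 of comp109189_c0_seq3, with the GO term DNA binding, had 173 reads in CK0, 19 in CK5 and 32 in CK8. Its share was 5.44-fold lower in CK5 than in CK0 (3.38 to 9.25) and 2.59-fold lower in CK8 than in CK0 (1.77 to 3.90). Per library total it was 4.08-fold lower in CK5 and 3.06-fold lower in CK8. The transcript was at 9.70 RPKM in CK0, 5.22 in CK5 and 6.18 in CK8. Position 1427 of comp107355_c0_seq11, whose GO terms include formation of organ boundary, had 99 reads in CK0, 49 in CK5 and 39 in CK8. That was 2415, 2671 and 1681 RPB, with CK5 1.11-fold the level of CK0 (0.769 to 1.57), and its share in CK5 was 0.829 times that in CK0. Its transcript was at 6.75 RPKM in CK0, 6.68 in CK5 and 5.40 in CK8. Both sites were listed under the same mature sequences, of which mtr-miR164a was at 6274 normalized small RNA reads in CK0, 11040 in CK5 and 10270 in CK8.

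For miR319, position 2184 of comp120317_c0_seq1 had 146 reads in CK0, 12 in CK5 and 28 in CK8. Its share was 7.26-fold lower in CK5 than in CK0 (4.03 to 14.4) and 2.50-fold lower in CK8 than in CK0 (1.66 to 3.89). Per library total it was 5.45-fold lower in CK5 and 2.95-fold lower in CK8. The transcript was at 9.29 RPKM in CK0, 2.79 in CK5 and 3.00 in CK8. The other miR319 site, position 86 of comp109874_c2_seq2, had 64, 21 and 17 reads on the 3 days and did not pass the 2-fold rule in any comparison of shares. For miR396, the most read site, position 327 of comp98130_c0_seq2, had 37 reads in CK0, 6 in CK5 and 8 in CK8, with a share 3.68-fold lower in CK5 than in CK0 (1.54 to 10.7) and 2.76-fold lower per library total. Position 586 of comp106394_c0_seq4 had 39 reads in CK0, 3 in CK5 and 1 in CK8. There the CK5 share was 7.76-fold lower than that of CK0 (2.47 to 39.3), and 5.82-fold lower per library total. In that case the transcript was not lower in CK5, with 9.35 RPKM in CK0, 11.4 in CK5 and 3.33 in CK8.

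**Figure D3:**
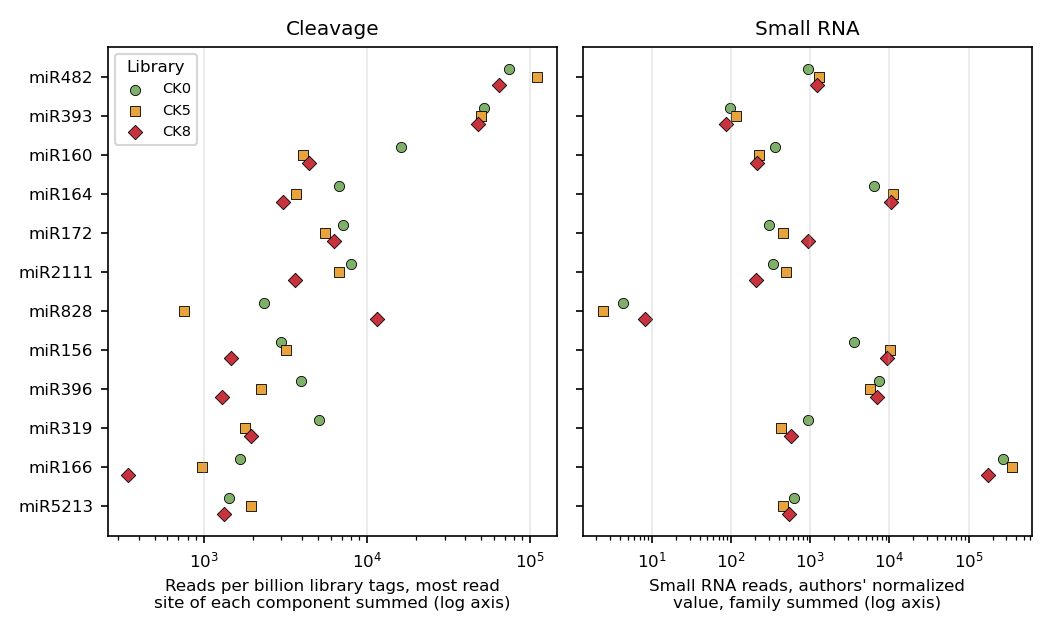
Left, RPB at the most read site of each component, summed by family (x axis, log scale). Right, the authors' normalized reads of all small RNAs named for that family (x axis, log scale), both in CK0, CK5 and CK8. For miR166 the cleavage reads were 1659, 981 and 345 on the 3 days while the small RNA stood at 272007, 348052 and 176212.

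The same direction prevailed between CK8 and CK0. Of 80 sites tested, 27 (33.8%) had a share at least 2-fold lower in CK8 and 8 (10%) at least 2-fold higher, together 43.8% of them. Per library total 34 (42.5%) were lower and 6 (7.5%) higher. All 27 lower sites, on 19 components, were also lower per library total, 6 of the 8 higher sites were also higher, and 19 of the 27 were also lower without comp100446_c0. Of the 80 sites, 38 reached the read minimum in CK0 only, and 21 of the 27 lower sites were among these. Where both libraries reached it, 6 of 36 sites had a lower share and 2 a higher one. With the same minimum per library total in both (431 RPB), 64 sites were tested, of which 22 were lower and 8 higher by share, and 27 lower and 6 higher per library total. The median of the 80 sites was -0.68 on the log2 scale of shares and -0.92 per library total. With 1 site per component and family the median per library total was -1.01 (52 pairs). With reads scaled to the median of the shares of the 80 sites, 13 sites were higher and 13 lower. The miR166 site at position 1226 of comp114529_c0_seq3, with GO terms for a sequence-specific transcription factor and procambium histogenesis, had 8 reads in CK8, against 68 in CK0. Its share was 4.07-fold lower (1.95 to 9.81), or 4.81-fold lower per library total, and the transcript was at 5.14 RPKM in CK8 and 9.68 RPKM in CK0. The miR2111 site at position 2716 of comp118753_c0_seq11 had 83 reads in CK8 and 321 in CK0. Its share did not reach the 2-fold rule, at 1.85-fold lower in CK8 (1.45 to 2.39), but per library total it was 2.19-fold lower (1.71 to 2.82). There the transcript was slightly higher in CK8, at 10.7 RPKM, against 9.29 RPKM in CK0. The miR7125 site at position 502 of comp99189_c0_seq3, annotated as a zinc ion transporter, had no reads in CK8 and 48 in CK0. With 3 reads taken as the limit of a count of 0, its share was at least 7.66-fold lower in CK8, or at least 9.06-fold lower per library total, while the transcript stood at 7.38 RPKM in CK8 and 5.69 RPKM in CK0. It had 11 reads in CK5.

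One site had nearly all of its reads on day 8. Position 158 of comp82781_c1_seq1, assigned to miR828, had 3 reads in CK0, none in CK5 and 241 in CK8, where it was the most read site outside miR482 and miR393. Its share in CK8 was 168-fold that in CK0 (56.7 to 819), or 142-fold per library total (48 to 693). With 3 reads taken as the limit of a count of 0, it was at least 63.5-fold higher in CK8 than in CK5 per library total and at least 100-fold higher as a share. At this position ABA8 had 3 reads and ABA5 2, while NDGA8 had 5 and NDGA5 1. The contig is 329 nt long and carries no annotation. Its transcript was at 0.105 RPKM in CK0, 0 in CK5 and 3.27 in CK8, and at 0.92 RPKM in ABA8. The miR828 sequence itself was scarce, with 1 small RNA read each in CK0 and CK5 and 3 in CK8. The other miR828 site with more than 10 reads, position 31 of comp93532_c0_seq2, went another way. It had 92 reads in CK0, 14 in CK5 and 28 in CK8, with a share 3.92-fold lower in CK5 than in CK0 (2.22 to 7.46) and 2.94-fold lower per library total, and its transcript was at 2.91 RPKM in CK0, 2.18 in CK5 and 3.18 in CK8.

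**Figure D4:**
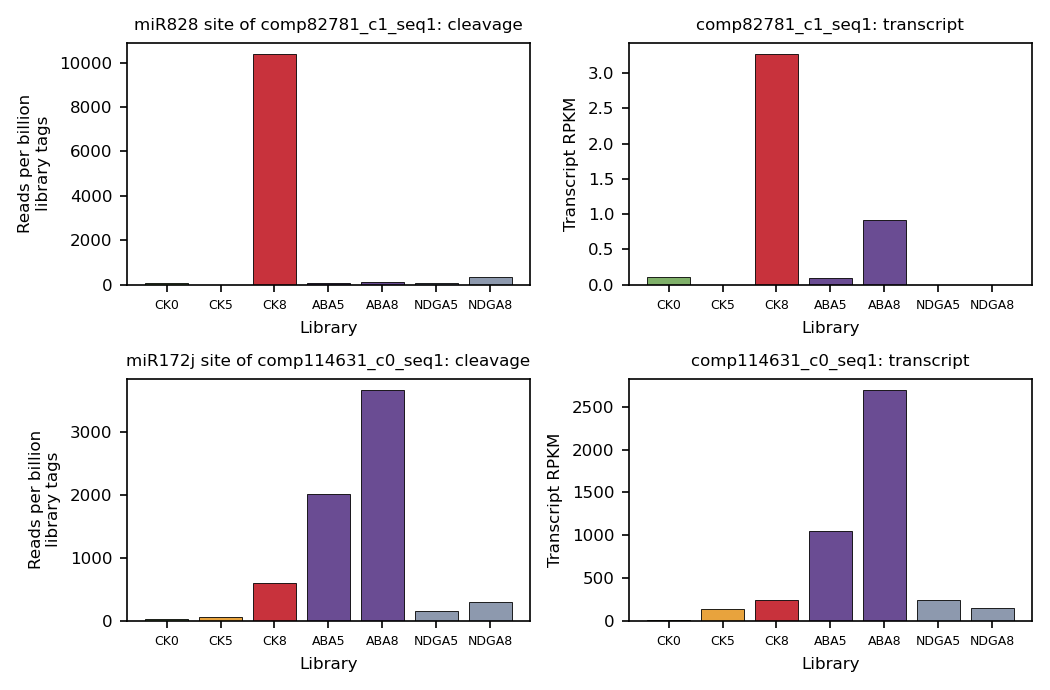
RPB at the site (left) and transcript RPKM (right) in each of the 7 libraries (x axis) for the miR828 site of comp82781_c1_seq1 and for the miR172j site of comp114631_c0_seq1. The miR828 site had 10389 RPB in CK8, and the miR172j site and its transcript were highest in ABA8.

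Some sites of the opposite miR172 arm also had more reads on day 8. That arm had 43 control sites, with 164 reads in CK0, 65 in CK5 and 144 in CK8, against 6 sites of miR172b with 154, 46 and 54 reads on those days. Of the 8 sites with a higher share in CK8 than in CK0, 4 belonged to it, on 2 components and with 3 of them isoforms of comp103824_c0. Predicted small RNAs had 3 others, 1 of which was also higher per library total. Position 654 of comp103824_c0_seq13 had 22 reads in CK8 and 2 in CK0, with an interval of the ratio of shares of 5.65 to 201 and per library total of 4.78 to 171, and its transcript was at 32.1 RPKM in CK8 and 3.43 RPKM in CK0. Position 507 of comp114631_c0_seq1, annotated as an FK506-binding protein, a class of protein-folding enzymes, had 14 reads in CK8 and 1 in CK0 (interval of the ratio 4.45 to 1236 as a share and 3.76 to 1046 per library total). Its transcript was at 242 RPKM in CK8 and 8.49 RPKM in CK0. These sites were category 2 in CK8, not category 0. The sequence they were assigned to, printed last above, was scarce, with 0.5 estimated small RNA reads in CK0, 2.5 in CK5 and 0.5 in CK8. A longer form of that arm with the same seed had 75.5, 196 and 399.5 on those days. That form was listed at 2 of the sites with at least 10 reads, against 8 for the scarce one. Position 1149 of comp119678_c0_seq2 had most reads on day 5, with 12 in CK0, 18 in CK5 and 3 in CK8. Its share in CK5 was 2.51-fold that in CK0 (1.15 to 5.72), or 3.35-fold per library total. The ratio of CK8 to CK5, with 3 reads in CK8, was 0.132 per library total (0.0249 to 0.451) and 0.208 as a share. The most read site of the family, position 558 of comp109158_c0_seq2 assigned to miR172b, had 131 reads in CK0, 42 in CK5 and 48 in CK8 and passed the rule in no comparison.

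Between CK8 and CK5, 51 sites were tested, of which 13 (25.5%) had a share at least 2-fold higher in CK8 and 7 (13.7%) at least 2-fold lower, together 39.2% of them. The balance turned with the scaling, since per library total 8 (15.7%) were higher and 10 (19.6%) lower. The 8 sites higher on both scales were 5 of miR172, the miR828 site of comp82781_c1 and 2 of a predicted small RNA. Those 2 are isoforms of 1 component, comp97298_c0, assigned to PC-3p-217_12084 at position 1505 of comp97298_c0_seq6. It had 75 reads in CK0, 7 in CK5 and 22 in CK8, with a share 3.92-fold higher in CK8 than in CK5 (1.62 to 10.9) and 6.40-fold lower in CK5 than in CK0 (2.96 to 16.5). Per library total these were 2.49-fold higher (1.03 to 6.89) and 4.80-fold lower. The same small RNA was assigned to position 787 of comp120586_c0_seq1, where the order was different. That site had 20 reads in CK5, against 7 in CK0, a share 4.79-fold higher (1.94 to 13.4) and 6.38-fold higher per library total, and 22 reads in CK8, while its transcript stayed between 7.33 and 8.49 RPKM. The mature miR156 site at position 2957 of comp119269_c0_seq4 was among the 7 lower ones. It had 13 reads in CK8 and 46 in CK5, a share 2.84-fold lower (1.51 to 5.73) and 4.47-fold lower per library total (2.38 to 9.03), with its transcript at 8.97 RPKM in CK8 and 14.2 RPKM in CK5.

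A few predicted small RNAs had sites of moderate depth on abundant transcripts. PC-5p-1425883_2 was assigned to position 401 of comp101369_c1_seq1, annotated as the beta subunit of elongation factor EF-1, which had 44 reads in CK0, 29 in CK5 and 36 in CK8. It was also assigned to position 151 of comp96221_c0_seq1, annotated as glutathione peroxidase, an enzyme that removes peroxides, with 31, 21 and 30 reads on those days. Both transcripts were abundant, at 130 to 158 RPKM and at 97.2 to 115 RPKM over the 3 days. Both sites were category 2 in every control library, and the small RNA had 2 reads in CK5 and none in CK0 or CK8.

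Cleavage reads were set beside the level of the cut transcript. Spearman's rho was first taken per library total over all tested sites. It was 0.04 for CK5 against CK0, 0.11 for CK8 against CK0 and 0.52 for CK8 against CK5. With 1 site per component and family, chosen after the data were seen, it was 0.22 (50 pairs), 0.35 (52 pairs) and 0.67 (31 pairs). A position listed under several families entered these pairs once for each, as for comp112346_c0_seq1, comp117349_c0_seq12 and comp97298_c0_seq6. These values describe sites that share libraries, so no p is given. Both the cleavage and the transcript were lower in CK8 than in CK0 in 33 of the 52 pairs, the cleavage alone in 8, both were higher in 6 and the cleavage alone in 5. Since 28 of the 52 pairs reached the read minimum in CK0 only, these counts describe the pairs tested and are no measure of cleavage as a whole.

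**Figure D5:**
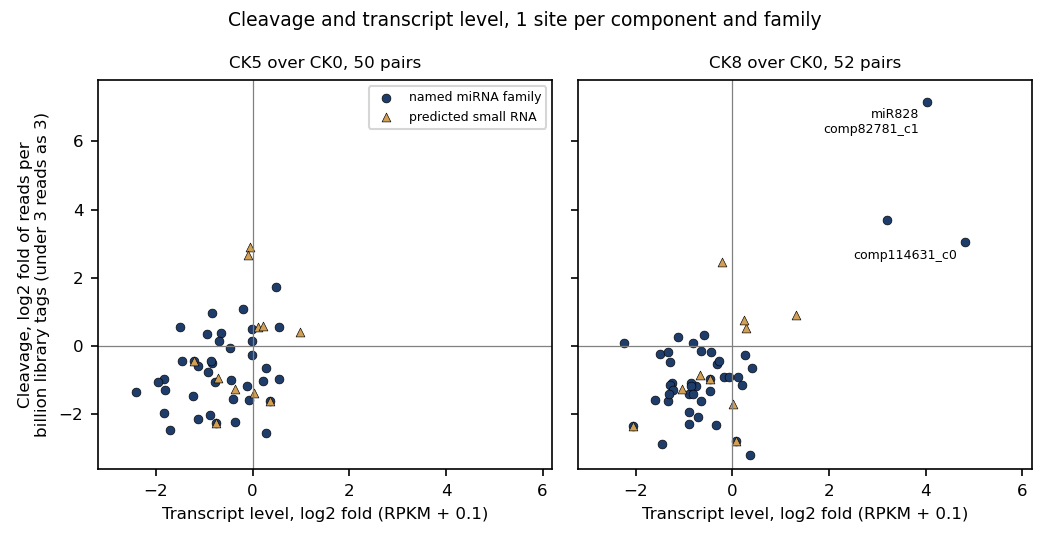
Log2 fold of the RPB at a site (y axis, under 3 reads read as 3) against the log2 fold of its transcript (x axis, RPKM + 0.1), 1 site per component and family, CK5 over CK0 (50 pairs) and CK8 over CK0 (52 pairs). For 33 of the 52 pairs in CK8 over CK0 both folds lie below 0, and the 3 points at the upper right in CK8 over CK0 are the miR828 site of comp82781_c1 and the miR172j sites of comp103824_c0 and comp114631_c0.

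Per 1000000 tags the control sites had 792 reads in CK0, 1056 in CK5 and 670 in CK8, and between 120 (ABA8) and 956 (NDGA5) in treated fruit. Without comp100446_c0 they had 175, 138 and 129 on the 3 days, and 53.2 (ABA8) to 126 (NDGA5) in treated fruit. With reads divided among the places they map to, the values were 229, 233 and 195, and 48.8 (ABA8) to 206 (NDGA5). The sites were chosen for reads in control fruit, so these totals cannot compare control with treated fruit. Of the 525 control sites, 184 had no reads in any treated library, and none of these had more than 6 reads in a control library. The authors' annotation of the degradome table held no transcript with an achene (seed) marker word, 3 with a word for receptacle ripening enzymes and 1 with a word for green tissue, too few to check the tissue.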

How the data were processed

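Degradome, small RNA and transcriptome libraries of receptacles from CK, ABA and NDGA fruit were analysed as deposited, with 1 library per group and assay, and groups were taken from the sample titles. The authors deposited a count of reads beginning at each predicted site, the same reads divided among the places they map to and a signal, those divided reads per 1000000000 library tags. They also deposited a category score, an estimated count per small RNA with a normalized signal, and RPKM per unigene after filtering with the NGS QC toolkit, Trinity assembly and TGICL. The degradome and small RNA programs are not given in any source used here. The 7 columns of deposited site p-values were not used. Empty counts were read as 0, and 629 of the 5207 lines had control reads. A site was each transcript and position once, under the small RNA with the lowest alignment score. Library totals were the divided reads over that signal.

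The size rule asked for a share of the listed reads at least 2-fold apart, at least 10 reads in 1 of the 2 libraries and a count under 3 read as 3. Intervals are exact (Clopper-Pearson) at 95% and cover counting error only. Sites named are the 10 with most control reads, the 5 largest higher and lower sites of each comparison with at least 50 reads in 1 of its libraries, the most read site of each of the 10 largest families, and the most read site of each listed family with a target-class word and at least 10 reads, of which there was none. The other named sites were chosen after their values were seen. Members, lists and tests were chosen with earlier results of these data known. Families were taken from the miRNA names. A pseudocount of 0.1 was added to RPKM in log2 folds. The procedure was run on simulated independent counts, the setting that the intervals assume. These held no PCR copies, reads shared by isoforms or differences between libraries, so the run cannot check those limits. Alternatives were other folds, read minimums, floors, units and scalings. Those per library total, without comp100446, with the same minimum per library total in both libraries and with 1 site per component beside the transcript level were chosen after the data were seen. Python 3.11.15, numpy 2.4.6, pandas 2.3.3, scipy 1.17.1 and matplotlib 3.10.9 were used.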

Additional observations from a re-analysis of the deposited data

How the results depend on the processing

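The count of sites with a share at least 2-fold apart, 40 for CK5 against CK0, 35 for CK8 against CK0 and 20 for CK8 against CK5, followed the size rule and the unit of a site. With a 3-fold rule the counts were 24, 19 and 9, with a minimum of 50 reads 12, 12 and 1, and with each line of the table as its own site 68, 55 and 32. A minimum of 5 reads gave 31 for CK8 against CK5. Leaving out comp100446_c0, chosen after the data were seen, gave 25 for CK5 against CK0, with 6 higher and 19 lower. The other settings stayed within 1.5 times of each count of sites apart. The split between higher and lower moved with the scaling. For CK5 against CK0 it was 3 higher and 37 lower by share but 21 and 16 by the median ratio, and for CK8 against CK0 8 and 27 by share but 13 and 13. For CK8 against CK5 it was 13 and 7 by share but 8 and 10 per library total, 9 and 10 in divided reads and 8 and 10 without comp100446_c0. A minimum of 5 reads gave 10 higher and 37 lower for CK5 against CK0 and 16 and 27 for CK8 against CK0. The same minimum per library total in both libraries, chosen after the data were seen, gave 28, 30 and 20 sites apart. The number of control sites, 525, came to 333 with 1 site per component and family and to 125 with at least 5 reads. The miR482 share, 79.8% in CK0, 88.7% in CK5 and 82.6% in CK8, was 68.2%, 81.4% and 73.7% over each line, 78.1%, 87.6% and 81.0% without the most read site, and 44.8%, 57.3% and 49.3% in divided reads. It was 36.6%, 52.4% and 39.4% with 1 site per component, and 8.65%, 13.5% and 9.57% without comp100446_c0. CK5 was highest in each of these. The shares of the other 9 large families were higher in 27 of 27 values in divided reads, with 1 site per component and without comp100446_c0. Each of these settings shrinks or removes the comp100446_c0 reads in the total. The other shares then rise largely by arithmetic, so this count tells nothing about those families. Spearman's rho between cleavage and transcript was 0.04, 0.11 and 0.52 over all sites and 0.22, 0.35 and 0.67 with 1 site per component. No paired analysis was possible because each group had 1 library, and no library could be left out. One read was worth 24.4 RPB in CK0, 54.5 in CK5 and 43.1 in CK8, so sites of a few reads could not be told apart between days.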
